A study of Mus musculus with 12 samples.

Results

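Adult hemoglobin in the mouse is made from the alpha globin genes Hba-a1 and Hba-a2 and the beta globin genes Hbb-bs and Hbb-bt, and their mRNAs were followed here in brain and spleen of mice with and without Norad. Members were taken by gene symbol. Of the 5 genes named for the set, 4 were analysed, out of 24062 genes measured, and the alpha chain chaperone Ahsp is not analysed here. The study sequenced poly(A) RNA of brain and spleen from male C57BL/6 mice aged 10 weeks, with 3 Norad+/+ and 3 Norad-/- libraries in each tissue. Norad-/- mice lack a noncoding RNA that binds PUMILIO proteins, and they descend from several genome-edited founder lines. Which line gave a library, and whether brain and spleen came from the same animals, is not in the sample records. The paper's methods give 3 mice per genotype for the brain and spleen RNA, without saying which libraries share a mouse. The question addressed was how loss of Norad alters the RNA of each tissue.

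Paired alpha and beta chains, each with a heme, form the adult hemoglobin tetramer. Erythroid precursors build up globin mRNA to a very high level under transcription factors such as GATA1, TAL1 and KLF1, and reticulocytes keep it after the nucleus has been lost. The mouse spleen makes red cells throughout life in its red pulp, beside the macrophages that take up old ones. The brain makes none, and globin mRNA there is best known from blood in the vessels, with low levels also described in neurons. C57BL/6 mice carry the Hbb-bs and Hbb-bt pair of beta genes, and the symbols Hbb-b1 and Hbb-b2 belong to another haplotype of the same locus.

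The coding sequences of the paralogs are almost the same, which bears on every value below. In GENCODE M21, an annotation of GRCm38, Hba-a1 (ENSMUSG00000069919) lies on chromosome 11 from 32283511 to 32284465 and Hba-a2 (ENSMUSG00000069917) from 32296489 to 32297298, both on the plus strand. Hbb-bs (ENSMUSG00000052305) lies on chromosome 7 from 103826534 to 103828096 and Hbb-bt (ENSMUSG00000073940) from 103812524 to 103813996, both on the minus strand. The 429-base coding sequences of the alpha pair differ at 1 base, C381T from Hba-a1 to Hba-a2, and the 444-base coding sequences of the beta pair differ at 1 base, C417T from Hbb-bs to Hbb-bt, counted from the A of the start codon. Each is the third base of its codon and leaves the encoded residue the same. The stretches around these bases are shown to let the pairs be compared, with the base that differs in capitals:
Hba-a1: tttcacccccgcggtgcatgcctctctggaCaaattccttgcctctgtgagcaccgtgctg
Hba-a2: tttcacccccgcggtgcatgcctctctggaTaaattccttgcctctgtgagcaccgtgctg
Hbb-bs: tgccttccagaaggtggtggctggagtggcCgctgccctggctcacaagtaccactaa
Hbb-bt: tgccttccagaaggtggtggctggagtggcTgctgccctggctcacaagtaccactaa

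Reads were 75 bases long. Of all 75-base windows of the alpha coding sequence, 86.2% were the same in both alpha genes, and of those of the beta coding sequence 92.4% were the same in both beta genes. Over whole transcripts the shared part was 62.2% for Hba-a1, 81.0% for Hba-a2, 64.3% for Hbb-bs and 56.6% for Hbb-bt, so each gene also had windows of its own. Hba-a1 was between 1.007 and 1.010 times Hba-a2 in every one of the 12 libraries, so both stand for 1 measurement of alpha globin mRNA and not for a pair of independent ones. Hbb-b1 was likewise 1.0127 times Hbb-bs in each library, and Hbb-b2 matched Hbb-bt within 0.122%, so these symbols repeat the members' values. Hbb-bt ranged from 0.260 to 0.466 of Hbb-bs, so the beta genes were measured as different quantities. The study's methods state that reads with more than 1 location were dropped; whether the FPKM values were made after that step is not stated there. What became of reads that fit both paralogs was not tested, so the levels, shares and alpha to beta ratios are those of the deposited values only.

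The 30 bases around the CACCC nearest the RefSeq start site (GRCm38.p6) are shown because KLF1 is known to bind such boxes in globin promoters, with the box in capitals:
Hba-a1, chr11:32283601-32283630, plus strand: aagggcgtgtcCACCCtgcctggaggacac
Hba-a2, chr11:32296418-32296447, plus strand: aagggcgtgtcCACCCtgcctggaggacac
Hbb-bs, chr7:103828003-103828032, minus strand: attccgtagagCCACACCCtggtaagggcc
Hbb-bt, chr7:103813994-103814023, minus strand: ctgcagggtaaCACCCtggcattggccaat
The alpha windows were identical. Searched on both strands from 250 bases before to 50 after the start, the longer CCACACCC, which contains CACCC, was found only in Hbb-bs among the 4 members and in 3.56% of 32851 promoters. CACCC itself was in 57.5% of all promoters, CCAAT in 37.4% and GATAA in 25.4%, and all 4 members held each of these. Such matches describe the letters of the window and not a bound site.

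FPKM values, which are read numbers scaled to transcript length and to the size of the library, were compared as log2(FPKM + 0.1) with limma, and p-values were adjusted by Benjamini-Hochberg over all genes tested. Estimated depth was 28.4 to 36.8 M reads a library. At these depths Hbb-bt in brain, the lowest member, rested on an estimated 180 to 620 reads, and Hbb-bs in spleen on 25000 to 204000. Norad, listed as 2900097C17Rik, stood between 42.9 and 62.0 FPKM in Norad+/+ spleens and at no more than 0.0173 FPKM in Norad-/- spleens, and in brain between 206 and 635 against at most 0.0121 FPKM, as the genotype labels say. Neuronal genes summed to 1778 to 2239 FPKM in brain and B cell genes to 1560 to 2014 FPKM in spleen, as the tissue labels say, but libraries of 2 groups also carried genes of neighboring tissues. Replicate 3 of Norad-/- brain summed to 1330 FPKM over 5 pituitary genes, where no other brain library exceeded 1.03, and replicate 3 of Norad+/+ spleen held 299 FPKM of 7 pancreas genes and 104 FPKM of 5 liver genes. The members' differences and the gene lists of the spleen are given also without these libraries.

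Globin mRNA was among the most abundant in spleen and far lower in brain. In Norad+/+ spleen, Hbb-bs was at 3848, 10045 and 8511 FPKM, with Hbb-b1, its second listing, the only row with a higher mean. Hbb-bt was at 1773, 4618 and 3890 FPKM and Hba-a1 at 1613, 4625 and 4033 FPKM. In all 3 members, replicate 1 was well below the other libraries. Hbb-bs was the highest of the 4 in each library, while Hbb-bt, Hba-a1 and Hba-a2 had means of 3427, 3424 and 3398 FPKM and did not differ beyond their spread. Together the members made up 5.22% ± 2.10 (SD, n = 3) of all FPKM in Norad+/+ spleen. Here and below, all FPKM include Hbb-b1 and Hbb-b2, which count the beta genes again, so the shares are lower than they would be without them.

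In Norad+/+ brain the same genes were at moderate levels. Hbb-bs was at 33.4, 37.7 and 34.0 FPKM, Hba-a1 at 17.2, 19.8 and 19.6 FPKM, and Hbb-bt at 11.7, 12.4 and 8.83 FPKM. The libraries lay close together, and the order Hbb-bs, Hba-a1, Hbb-bt held in each. The 4 members were 0.0289% ± 0.0027 (SD, n = 3) of all FPKM in this group. Spleen exceeded brain by 7.36 ± 0.40 on the log2 scale (SE) for Hba-a1, a 164-fold difference with an adjusted p of 4.47e-06 in limma. For Hbb-bs it was 7.62 ± 0.38 (adjusted p = 2.97e-06) and for Hbb-bt 8.18 ± 0.38 (adjusted p = 2.32e-06). All 4 members passed, in a comparison where 79.0% of 14216 genes did, so the call itself says little about the members. The median over all genes was 0.24, and 0.04 after rescaling to TPM. Without Norad+/+ spleen replicate 3, spleen exceeded brain by 7.17 for Hba-a1, 7.47 for Hbb-bs and 8.03 for Hbb-bt.

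**Figure D1:**
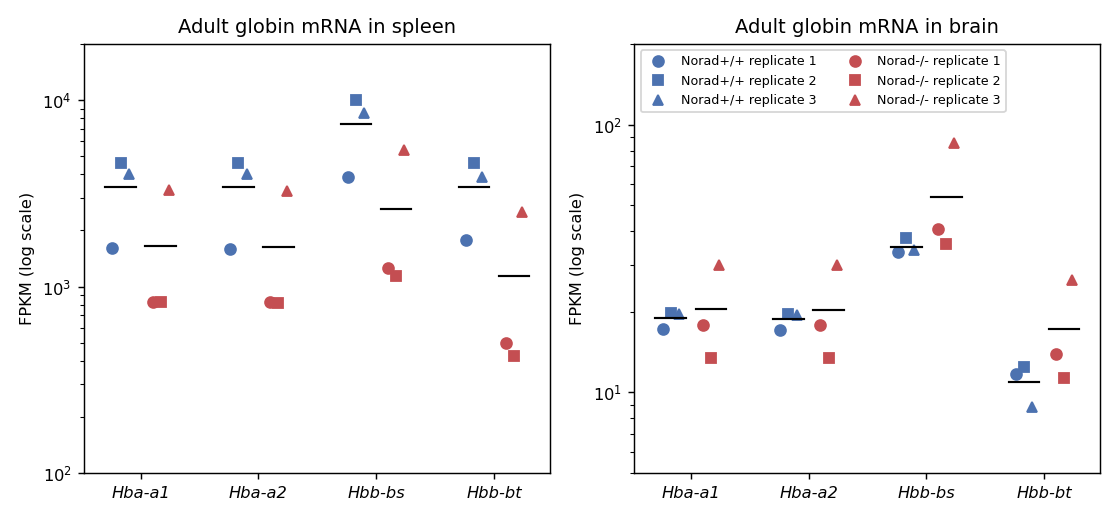
FPKM of the 4 adult globin genes in each library of spleen (left) and brain (right), on log axes that differ between the panels; symbols give the replicate, colors the genotype, and black lines the group mean. In spleen, Norad-/- replicates 1 and 2 lie below all Norad+/+ libraries and replicate 3 lies among them, while in brain Norad-/- replicate 3 is the highest library for every member.

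In spleen, 2 of the 3 Norad-/- libraries held less globin mRNA than any Norad+/+ library, and no member was called. Hbb-bs, the beta gene with the higher level, was at 1262, 1133 and 5378 FPKM in the Norad-/- libraries, against 3848 to 10045 in Norad+/+. Hbb-bt, the second beta gene, was at 501, 426 and 2508 FPKM, against 1773 to 4618. Hba-a1 was at 828, 821 and 3282 FPKM, against 1613 to 4625, and Hba-a2 at 822, 815 and 3255 FPKM, against 1597 to 4592. In each member, replicates 1 and 2 of Norad-/- were below every Norad+/+ library and replicate 3 was inside the Norad+/+ range, so the groups overlapped; over all genes tested, 26.5% had groups that did not.

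The estimated differences were all toward lower values in Norad-/- spleen. The log2 difference was -1.81 ± 0.68 (SE) for Hbb-bs, with a 95% interval from -3.45 to -0.16 and an adjusted p of 0.214 in limma. For Hbb-bt it was -1.97 ± 0.74, with an interval from -3.76 to -0.17 (adjusted p = 0.216), and for Hba-a1 -1.25 ± 0.66, with an interval from -2.85 to 0.34 (adjusted p = 0.321). None of the 4 members passed, as was true of nearly all genes, 0.0323% of 12397 being called. Both beta genes had an unadjusted p under 0.05 and the alpha genes did not; 13.6% of all genes were lower at that threshold. This depended on single libraries. With Norad+/+ replicate 2, Norad+/+ replicate 3, Norad-/- replicate 1 or Norad-/- replicate 2 left out, neither beta gene was under 0.05. Their unadjusted p in limma was then 0.0954 to 0.116.

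The size of the spleen difference changed most with Norad-/- replicate 3. Without Norad-/- replicate 3, the log2 difference was -2.53 for Hbb-bs (adjusted p = 0.0787), -2.78 for Hbb-bt (adjusted p = 0.0760) and -1.92 for Hba-a1 (adjusted p = 0.110) in limma. Without Norad+/+ replicate 3, the library with pancreas and liver genes, it was -1.66 for Hbb-bs (adjusted p = 0.409), -1.82 for Hbb-bt (adjusted p = 0.409) and -1.06 for Hba-a1 (adjusted p = 0.545). The members kept their negative sign in all 15 alternatives, and their adjusted p ranged from 0.0760 to 0.609. The share of all FPKM held by the members was 1.15%, 1.05% and 4.57% in the Norad-/- spleens and 2.93%, 7.06% and 5.67% in the Norad+/+ spleens. Fewer erythroid cells and less globin mRNA per cell cannot be told apart in such bulk samples.

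In brain, 2 of the 3 Norad-/- libraries lay in or near the Norad+/+ range and the other was above it. Hbb-bs was at 40.7, 35.7 and 85.0 FPKM in Norad-/- brains, against 33.4 to 37.7 in Norad+/+. Hba-a1 was at 17.9, 13.5 and 29.99 FPKM, against 17.2 to 19.8. Hbb-bt was at 13.9, 11.3 and 26.3 FPKM, against 8.83 to 12.4. The highest value of each member was in Norad-/- replicate 3, the library with pituitary genes, and the lowest Norad-/- value was always in replicate 2.

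No member was called in brain. The log2 difference was 0.51 ± 0.32 (SE) for Hbb-bs, with an interval from -0.27 to 1.29 (adjusted p = 0.720 in limma), and 0.56 ± 0.32 for Hbb-bt, with an interval from -0.22 to 1.34 (adjusted p = 0.718). For Hba-a1 it was 0.04 ± 0.28, with an interval from -0.65 to 0.72 (adjusted p = 0.969). Only 0.0153% of 13051 genes were called in this tissue, 17.1% had groups that did not overlap, and all 4 members' groups overlapped. Without Norad-/- replicate 3, Hba-a1 turned to -0.28 (adjusted p = 0.908), Hbb-bs was 0.13 (adjusted p = 0.908) and Hbb-bt 0.21 (adjusted p = 0.908). The part of the pituitary RNA in these values was not tested.

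The genotype difference in spleen was set against that in brain as an interaction over all 12 libraries. The spleen difference minus the brain difference was -2.32 ± 0.82 (SE) for Hbb-bs, with a 95% interval from -4.13 to -0.50 (adjusted p = 0.255 in limma). For Hbb-bt it was -2.53 ± 0.88, with an interval from -4.47 to -0.58 (adjusted p = 0.252), and for Hba-a1 -1.29 ± 0.78, with an interval from -3.02 to 0.44 (adjusted p = 0.473). None of the 4 members passed after adjustment, and 0% of 14967 genes did; unadjusted, both beta genes were below 0.05, with 10.7% of all genes lower at that threshold. Without spleen Norad-/- replicate 3, Hbb-bs reached -3.04 (adjusted p = 0.0354) and Hbb-bt -3.34 (adjusted p = 0.0280) in limma. In that fit 344 of 14978 genes were called, 316 of them lower. Without both libraries that carried RNA of neighboring tissues, the values were -1.78 for Hbb-bs (adjusted p = 0.559) and -2.02 for Hbb-bt (adjusted p = 0.552). Brain and spleen libraries that came from the same mouse would not be independent, which this fit does not take into account.

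**Figure D2:**
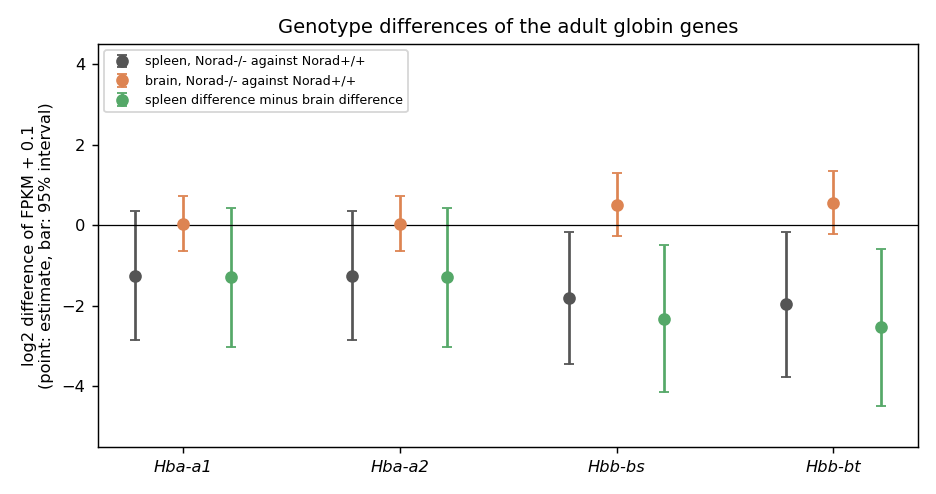
Log2 differences of FPKM + 0.1 between Norad-/- and Norad+/+ for each adult globin gene in spleen and in brain, and the spleen difference minus the brain difference; points are limma estimates and bars their unadjusted 95% intervals. The spleen estimates lie between -1.97 and -1.25 and the brain estimates between 0.04 and 0.56.

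The balance of alpha to beta mRNA was read within each library. Summed alpha over summed beta FPKM was 0.571, 0.629 and 0.648 in Norad+/+ spleens and 0.937, 1.05 and 0.829 in Norad-/- spleens. Every Norad-/- spleen was above every Norad+/+ spleen, replicate 3 included, although its globin levels were inside the Norad+/+ range. In brain the ratio was 0.761, 0.787 and 0.913 in Norad+/+ and 0.652, 0.572 and 0.537 in Norad-/-. There every Norad-/- library was below every Norad+/+ library, the opposite order to spleen. Brain Norad+/+ replicate 3, at 0.913, had the lowest estimated depth of all libraries, 28.4 M reads. Its median Spearman correlation with the other brain libraries was 0.949, where theirs were 0.973 to 0.979. Among single genes, groups that did not overlap were common, at 26.5% of all genes tested in spleen and 17.1% in brain. No such share was worked out for ratios, or for both tissues at once.

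On the log2 scale the mean ratio was higher by 0.60 in Norad-/- spleen, and in Norad-/- brain it was -0.48 relative to Norad+/+. These are descriptions of 3 libraries against 3 and were given no test. Leaving out each library in turn gave 0.52 to 0.69 in spleen and -0.56 to -0.40 in brain, with 0.64 without Norad+/+ spleen replicate 3 and -0.42 without Norad-/- brain replicate 3. With single genes in place of the sums, Hba-a1 over Hbb-bs gave 0.56 in spleen and -0.47 in brain. In brain these ratios rest on an estimated 180 to 1790 reads per gene.

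The share of Hbb-bt in beta mRNA varied as well. Hbb-bt made up 31.5%, 31.5% and 31.4% of beta mRNA in Norad+/+ spleens, the tightest value of any group, and 28.4%, 27.3% and 31.8% in Norad-/- spleens. Replicates 1 and 2 of Norad-/-, with the least globin, also had the smallest Hbb-bt share, and replicate 3 was just above the Norad+/+ libraries. In brain Hbb-bt was 25.9%, 24.8% and 20.6% of beta mRNA in Norad+/+ and 25.5%, 24.0% and 23.6% in Norad-/-. All 6 brain values lay below all 6 spleen values. Hba-a1 was 50.2% of alpha mRNA in each library, as the fixed ratio of its values to those of Hba-a2 entails.

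**Figure D3:**
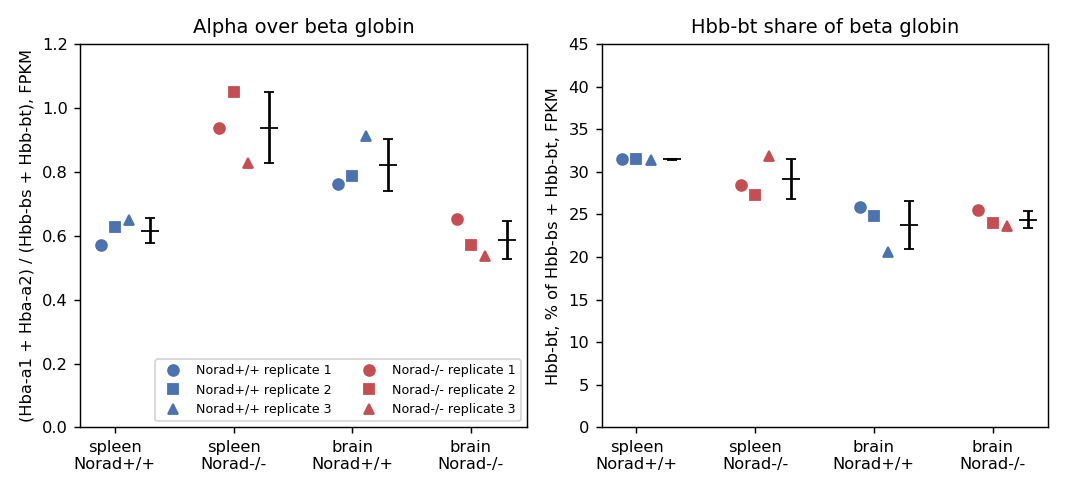
Left, summed alpha over summed beta globin FPKM, and right, Hbb-bt as a percent of summed beta FPKM, in each library; symbols give the replicate, and the black mark and bar the group mean and SD (n = 3). Alpha over beta is higher in Norad-/- than in Norad+/+ spleens and lower in Norad-/- than in Norad+/+ brains, without overlap in either tissue.

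The embryonic globins and Hbq1b were scarce in spleen, where the adult ones were abundant. Hbq1b, a theta-like gene of the alpha locus, was at 2.67, 8.65 and 10.6 FPKM in Norad+/+ spleens and at 0.469, 0.312 and 4.80 FPKM in Norad-/- spleens, with a log2 difference of -2.61 ± 1.02 (SE, adjusted p = 0.226 in limma). Hba-x, the embryonic zeta chain, was at 0.877, 2.74 and 3.38 FPKM and at 0.546, 0.364 and 1.51 FPKM, with -1.44 ± 0.64 (adjusted p = 0.259). In both, as in the adult genes, Norad-/- replicates 1 and 2 were the lowest libraries. Without Norad+/+ replicate 3 the differences were -2.23 for Hbq1b and -1.09 for Hba-x. Hbb-bh1, an embryonic beta-like gene, reached 1.01 FPKM at most, and Hbb-y, the embryonic epsilon-like chain, 0.129 FPKM.

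Globins of non-erythroid cells had the other distribution. Cygb, the cytoglobin of fibroblast-like cells and some neurons, had means of 35.5 and 35.9 FPKM in Norad+/+ and Norad-/- brain and of 4.82 and 6.76 FPKM in spleen. In spleen its log2 difference was 0.48 ± 0.14 (SE, adjusted p = 0.186 in limma). Ngb, the neuronal neuroglobin, had means of 1.93 and 1.85 FPKM in the brain groups and was at most 0.168 FPKM in spleen. Mb, the myoglobin of muscle, stayed at or under 0.565 FPKM in all libraries. Of the 9 globins listed besides the members and their second symbols, 3 were tested in spleen and 2 in brain, and none passed.

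Genes of heme synthesis, which supplies the group that globin binds, were low in the same 2 spleens. Alas2, the erythroid rate-limiting enzyme, was at 41.9, 37.5 and 205 FPKM in Norad-/- spleens and at 184, 451 and 429 FPKM in Norad+/+ spleens, with a log2 difference of -2.26 ± 0.72 (SE, adjusted p = 0.189 in limma). Alas1, its counterpart in other cells, had means of 14.2 and 15.2 FPKM. Alad, which joins the first precursors of the ring, had means of 8.69 and 27.2 FPKM. All 12 genes of the list had an estimate below 0, with a median of -1.66 against -0.02 over all genes. Of the 12, 8 had an unadjusted p under 0.05, where 13.6% of all genes were lower, and 0 passed after adjustment. Rescaling to TPM moved the median of all genes to 0.10 and so lifts all these values by 0.12.

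Transcription factors and receptors of the erythroid line followed in part. Gata1, the erythroid master regulator, was at 2.10, 2.44 and 27.0 FPKM in Norad-/- spleens, against 14.6 to 53.7 in Norad+/+. Klf1, which binds the CACCC box of the beta promoter, was at 1.23, 0.833 and 42.6 FPKM, against 20.5 to 131. Replicates 1 and 2 were again below all Norad+/+ libraries and replicate 3 among them. Of 12 listed globin regulators, 10 had an estimate below 0, with a median of -0.95. At an unadjusted p under 0.05 in limma there were 5, where 13.6% of all genes were lower, and 0 passed. Of 7 receptors and signalling genes, 4 were below 0 and 0 passed; Epor, the erythropoietin receptor, had means of 5.49 and 21.5 FPKM, while Jak2, its kinase, which other blood cells also use, had 40.9 and 38.5 FPKM.

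The red cell membrane genes stood lower in those spleens than globin did. Slc4a1, the band 3 anion exchanger, was at 5.44, 2.49 and 180 FPKM in Norad-/- spleens and at 129, 333 and 467 FPKM in Norad+/+ spleens, with a log2 difference of -4.31 ± 1.57 (SE, adjusted p = 0.210 in limma). All 13 listed membrane genes in the files had an estimate below 0, with a median of -3.80. Of the 13, 12 had an unadjusted p under 0.05, where 13.6% of all genes were lower, and 0 passed. The count of 12 depended on single libraries, as given further below. Hbb-bs over Slc4a1 was 232, 455 and 29.9 in the Norad-/- spleens and 29.9, 30.2 and 18.2 in the Norad+/+ spleens, so replicates 1 and 2 held far more globin per band 3 mRNA than the other spleens. In brain the same ratio ran from 90.3 to 643 over both genotypes, with Slc4a1 at or under 0.418 FPKM.

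Per Alas2, globin mRNA varied much less. Hbb-bs over Alas2 was 20.9, 22.3 and 19.8 in Norad+/+ spleens and 30.1, 30.2 and 26.3 in Norad-/- spleens. In brain it was 25.6, 19.2 and 24.4 in Norad+/+ and 28.4, 32.5 and 33.2 in Norad-/-. In both tissues every Norad-/- library was above every Norad+/+ library. Of all single genes tested, 26.5% in spleen and 17.1% in brain had groups that did not overlap, and no share was worked out for ratios. Alas2 in brain was not far above the 1 FPKM filter. Hbb-bs over Slc4a1 and Hbb-bs over Alas2 were 2 of 12 ratios and shares looked at. The choice of Alas2 and Slc4a1 as denominators was made after their values were seen, so no test is given. Hba-a1 over Alas2 was 19.8, 21.9 and 16.0 in Norad-/- spleens against 8.76 to 10.3, and in brain it was 11.7 to 12.5 against 10.1 to 14.1, where the groups overlapped.

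**Figure D4:**
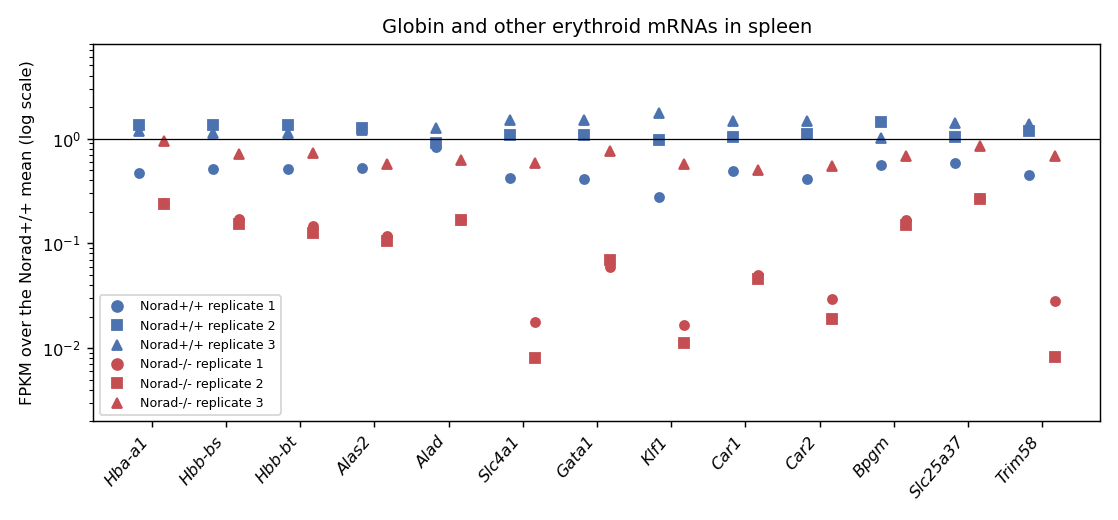
FPKM of globin and other erythroid genes in each spleen library, divided by the Norad+/+ mean of the gene, on a log axis; colors give the genotype and symbols the replicate. In Norad-/- replicates 1 and 2 the globins lie at a higher fraction of the Norad+/+ mean than Slc4a1, Klf1, Car2 and Trim58 do. Not every erythroid gene shown fell further than globin. The log2 differences in spleen were -1.25 for Slc25a37, -1.86 for Bpgm and -1.91 for Alad. Those of the globins were -1.25 for Hba-a1, -1.81 for Hbb-bs and -1.97 for Hbb-bt.

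Late red cell genes and the genes that clear hemoglobin were read from the same lists. Car2, a carbonic anhydrase, was at 16.8, 10.9 and 312 FPKM in Norad-/- spleens and at 233, 628 and 839 FPKM in Norad+/+. Bpgm, which makes the 2,3-bisphosphoglycerate that tunes oxygen release, was at 36.1, 32.0 and 147 FPKM, against 122 to 308. All 10 genes of metabolism and redox were below 0 with a median of -1.57, as were all 11 tested genes of mitochondrial iron import and reticulocyte maturation with -1.76, and 0 passed in either list. Trim58, which acts when the nucleus is lost, had means of 1.08 and 4.49 FPKM, and Slc25a37, the mitochondrial iron importer, 80.6 and 174 FPKM.

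The clearance genes were also estimated lower in Norad-/- spleen. Hmox1, the heme oxygenase of red pulp macrophages, was at 220, 197 and 345 FPKM in Norad-/- spleens and at 301, 290 and 459 FPKM in Norad+/+. Cd163, the hemoglobin-haptoglobin receptor, had means of 4.18 and 8.08 FPKM, with -0.94 ± 0.23 (SE, adjusted p = 0.157 in limma). Hp, the haptoglobin that binds free hemoglobin, was at -2.02 ± 0.45 (SE, adjusted p = 0.152 in limma) and Hpx, the heme-binding hemopexin, at -2.19 ± 1.57 (adjusted p = 0.454), both named after their values were seen. Hpx was below the 1 FPKM filter without Norad+/+ replicate 3. All 11 listed genes were below 0 with a median of -0.58, and 0 passed.

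Which of these genes were called also depended on Norad-/- spleen replicate 3. Without it, 8 of 13 membrane genes passed in limma, all lower in Norad-/-, with a list median of -5.29, and Slc4a1 was among them. Over all genes tested in that fit, 0.612% passed as lower, 76 of 12425. In the same fit 3 of 10 genes of metabolism and redox passed, Car1 and Car2 among them, 2 of 11 of iron import and reticulocyte maturation, 1 of 12 of heme synthesis, which was Alad, and 1 of 12 regulators, which was Nfe2. The adult globin genes did not pass in that fit, at adjusted p of 0.0760 to 0.110. Without any other single spleen library no gene of these lists passed.

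The number of membrane genes at an unadjusted p under 0.05 went from 12 to 0 without Norad+/+ replicate 2, Norad+/+ replicate 3, Norad-/- replicate 1 or Norad-/- replicate 2, and stayed at 12 without Norad+/+ replicate 1. Without Norad+/+ replicate 3, the medians were -3.29 for the membrane, -1.29 for heme synthesis, -1.22 for metabolism and redox, -1.35 for iron import and reticulocyte maturation and -0.41 for clearance. The regulators went to a median of -0.55 in that fit, with 1 gene and not 5 at an unadjusted p under 0.05. Alas2 was at -2.07 (adjusted p = 0.376 in limma) and Slc4a1 at -3.92 (adjusted p = 0.404).

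Marker genes of other spleen cells also differed between these libraries. The summed level of 9 granulocyte and precursor genes, Elane and Mpo among them, ran from 154 to 1523 FPKM in Norad-/- and from 835 to 2440 FPKM in Norad+/+ spleens, and that of 10 genes of dividing cells from 84.3 to 278 against 211 to 572 FPKM. All 9 and all 10 had an estimate below 0, with medians of -2.03 and -1.45. All 8 macrophage genes were below 0 with a median of -0.47, and so were all 8 genes of megakaryocytes and platelets with -0.90. All 7 T cell genes were above 0 with a median of 0.60 and an unadjusted p under 0.05, where 7.42% of all genes were higher. No gene of these lists passed after adjustment. B cell genes had a median of 0.15 and endothelial genes of -0.04. Without Norad-/- replicate 3 the macrophage gene Emr1 passed, where 76 of 12425 genes passed as lower. In that fit the granulocyte median was -3.18 and that of megakaryocytes and platelets -1.40. There 9 of 9 granulocyte genes had an unadjusted p under 0.05 in limma, where 1612 of 12425 genes were lower. With all libraries 2 of the 9 did. With Norad+/+ replicate 2, Norad+/+ replicate 3, Norad-/- replicate 1 or Norad-/- replicate 2 left out, 0 of the 9 did. Without Norad+/+ replicate 3 the medians were -1.87 for granulocytes, -1.17 for dividing cells, -0.40 for macrophages, -0.88 for megakaryocytes and platelets and 0.59 for T cells, and 2 and not 9 genes of dividing cells had an unadjusted p under 0.05. The part of the cell makeup in the globin values was not tested.

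The genes most like the members in spleen came from several of these cells. Likeness was the Pearson correlation, over the 6 spleen libraries, of log2(FPKM + 0.1) with the members' mean. Apart from Hbb-b1 and Hbb-b2, the 10 highest of 12393 genes were Ear6, P2ry1, Birc5, Ear7, Parvb, Prtn3, Rab44 and Itga2b, with r from 0.993 to 0.998. Ear6 and Ear7 encode ribonucleases of eosinophils, Prtn3 a protease of neutrophil granules, Itga2b a platelet integrin chain and Birc5 the mitotic protein survivin. Ear6, P2ry1, Ear7 and Rab44 averaged 1.56, 1.37, 1.80 and 2.10 FPKM over the 6 spleen libraries, not far above the 1 FPKM filter. Birc5 was at 15.4, 15.4 and 84.2 FPKM in Norad-/- spleens and at 42.4, 123 and 125 FPKM in Norad+/+. In all, 810 genes had r over 0.9, and the points share their libraries and depth.

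In brain, several defining genes of the red cell were near 0 FPKM. Alas2 was at 1.30, 1.96 and 1.40 FPKM in Norad+/+ and at 1.43, 1.10 and 2.56 FPKM in Norad-/-, highest in the library with the highest globin. Slc4a1, Gata1 and Klf1 did not exceed 0.418 FPKM in any brain library. Of the 13 membrane genes, 5 were tested, with a median of -0.18, and of the 12 heme synthesis genes all were tested, with a median of 0.05, against 0.02 over all genes; none passed. Without Norad-/- replicate 3 these medians were 0.01 and -0.04. Among the tested membrane genes, Sptb, Ank1, Add2 and Dmtn were not estimated higher in Norad+/+ spleen than in Norad+/+ brain. Their log2 differences of spleen from brain were -0.76, -0.33, -2.00 and -0.97. The membrane median in brain is therefore not a measure of red cells. In Norad-/- replicate 3, with the most globin, granulocyte genes also summed highest, to 11.2 FPKM against 2.996 to 6.81 in the other brains. Endothelial genes summed to 58.7 to 68.4 FPKM in Norad-/- and to 69.2 to 83.0 FPKM in Norad+/+ brains. Of these 7 genes, 6 had an estimate below 0, with a median of -0.15, and 0 passed. Among single genes in brain, 17.1% had groups that did not overlap.

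Genes most like the members in brain included Wdr4, Tmem115, Pdik1l, Map2k7, Imp3, Thbd, Fdxacb1, Lztr1 and Tex30, with r from 0.973 to 0.988 over 6 libraries among 13047 genes. Thbd, the endothelial anticoagulant receptor thrombomodulin, was at 6.03, 3.86 and 20.0 FPKM in Norad-/- and at 5.59, 5.22 and 3.86 FPKM in Norad+/+ brains, again highest in Norad-/- replicate 3. The remaining gene of the 10 was Hbb-b1. In all, 167 genes had r over 0.9.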

How the data were processed

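Total RNA of brain and spleen was made into stranded poly(A) libraries and read as 75-base single reads. Per the paper and the submitters' processing notes, TopHat2 2.0.12 placed the reads on GRCm38 (mm10), only reads with 1 location were kept, and the deposited FPKM values were made by the authors with StringTie 1.2.2. The gene annotation behind these values is not given in the sources used here. The deposited tables list 24062 genes for 12 libraries, with 0 value columns left unassigned. Each library is a labelled replicate, so p-values measure the spread between these samples.

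The scale for all tests was log2(FPKM + 0.1), on which fold changes of low genes come out too small. Tests used limma 3.58.1 (R 4.3.3) with its variance trend, for genes averaging 1 FPKM or more, with Benjamini-Hochberg adjustment and a threshold of 0.05, within each tissue and, for the interaction, over 12 libraries. The files hold no counts, so the count model of the authors was not used. Depth was estimated from the FPKM worth 1 read at genes with 1 transcript. Ratios and shares have no test. FPKM gives no counting interval.

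The members and the 22 gene lists were chosen with earlier results of these data known. Named genes are the members, the first 4 measured genes of a list at 1 FPKM or more (all other globins), the 10 genes most correlated with the members in each tissue, and Norad. Promoters came from RefSeq (GRCm38.p6), where all 4 members matched, and coding sequences from GENCODE M21 transcripts. Other pseudocounts (1 and 0.01), filters, scalings, a replicate block and leaving out each library were tried, and leaving out replicate 3 of 2 groups at once was added after the data were seen.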

Additional observations from a re-analysis of the deposited data

Results flagged for a closer look

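Alpha over beta globin mRNA differed between genotypes in opposite directions in the 2 tissues, with every library of one genotype on one side. Summed alpha over summed beta had a mean of 0.938 in Norad-/- and 0.616 in Norad+/+ spleens, and of 0.587 in Norad-/- and 0.820 in Norad+/+ brains. The same held for Hba-a1 over Hbb-bs (0.664 and 0.451 in spleen, 0.390 and 0.539 in brain), for Hba-a2 over Hbb-bs (0.659 and 0.448 in spleen, 0.387 and 0.535 in brain) and for Hba-a1 over Hbb-bt (1.63 and 0.983 in spleen, 1.21 and 1.76 in brain). These 4 ratios share their numerators and denominators, so they are 1 observation, found among 12 ratios and shares looked at. Among single genes, 26.5% of those tested in spleen and 17.1% in brain had groups that did not overlap. The difference between the tissues was not tested. With 3 libraries in a group, no test for single outlying libraries was made.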

How the results depend on the processing

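Of the members' differences, the 60 alternative values in spleen and the 60 between tissues kept their direction and their side of the threshold. In brain 58 of 64 did. Leaving out single libraries, Hba-a1 ran from -0.28 to 0.30, turning to -0.03 without brain Norad+/+ replicate 1 and to -0.28 without brain Norad-/- replicate 3, and it was -0.25 without replicate 3 of both brain groups, which was chosen after seeing the data, and Hba-a2 had the same values (-0.28 to 0.30, -0.03, -0.28 and -0.25). In the interaction 86 of 88 held, and Hbb-bs (-3.04) and Hbb-bt (-3.34) passed without spleen Norad-/- replicate 3, where 344 of 14978 genes did.

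The number of genes called in spleen, 4, was 2 with no filter, after rescaling to TPM, after rescaling without the members and after quantile normalization, with 0 higher and 2 lower in each in place of 1 higher and 3 lower. Rescaling without the members left Hbb-b1 and Hbb-b2, the second listings of the beta genes, in the sum. Leaving out single libraries gave 1 to 93 in spleen, 1 to 15 in brain, where 2 were called, and 0 to 344 in the interaction, where 0 were called. The interaction count was 16 with a pseudocount of 1, 1 with 0.01, 2 with quantile normalization and 4 without a variance trend. Without replicate 3 of both brain groups 25 genes were called in brain, and without the libraries with pituitary or pancreas genes 4 in the interaction. The cause was not tested.

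With the replicate block, 1 gene was called in spleen, 1 in brain, 11172 between tissues and 0 in the interaction, and no call of a member changed. Within a tissue, Norad+/+ and Norad-/- libraries of the same number did not deviate together throughout. Their correlations were 0.34, -0.15 and 0.29 in spleen and 0.06, 0.07 and 0.11 in brain, so the numbers were not taken as pairs of genotypes. Brain and spleen libraries of the same number were not compared, so whether they share a mouse was not tested. Depth is estimated and globin in brain rests on an estimated 180 to 1790 reads a gene, which limits its ratios.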
